A study of Mus musculus with 21 samples.

Results

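The genes described here are 48 mouse genes of DNA replication and S phase, measured by RNA sequencing in bone marrow-derived macrophages. They were taken by name from the deposited table of estimated counts per RefSeq transcript, and the transcript with the highest mean count stood for each gene. All 48 were found among 25067 named genes, and all 48 passed the filter on low counts that left 12529 genes for testing. The 21 libraries formed 6 groups, with 3 labelled-KO and 4 WT libraries at each of 0, 4 and 18 h of lipopolysaccharide (LPS), a bacterial cell wall component, at 100 ng/ml. The knockout label refers to Nur77, the nuclear receptor encoded by Nr4a1. All cells came from male C57Bl6/J mice aged 6 to 12 weeks. Marrow from femurs and tibias was grown for 7 days in medium conditioned by L929 cells, a source of the macrophage growth factor M-CSF, and the cells were then lifted and seeded again; the 0 h groups received no LPS. For the labelled-KO libraries the genotype is tagged cre, and the sources used here do not give the deleted exons or say in which cells the deletion acts. The labels number the libraries 2 to 4 (labelled KO) and 1 to 4 (WT) and do not say whether a number stands for 1 mouse, so the p-values cover only the spread among these libraries.

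Before S phase, origin recognition complex, Cdc6 and Cdt1 load the ring-shaped Mcm2 to Mcm7 helicase onto DNA, and Cdc45 and the GINS complex then activate it. The fork that follows needs a primase and polymerases, a sliding clamp with its loader, a supply of deoxynucleotides, and factors that rebuild chromatin and copy DNA methylation behind it. Most of these genes are transcribed late in G1 under E2F factors, so their messenger RNAs are widely read as a sign of cycling cells. Macrophages grown from marrow divide in M-CSF and are known to slow their cycle when they meet LPS. In these bulk libraries fewer cycling cells and less RNA of a gene per cell cannot be told apart.

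Counts on the genes kept ranged from 12301504 to 29650081 per library, and the CPM values given were computed from them with edgeR's TMM-scaled library sizes. Nr4a1 did not separate the genotypes at 0 h (12.3 ± 0.113 CPM in labelled-KO and 14.7 ± 1.27 CPM in WT libraries, SD, n = 3 and 4, edgeR adjusted p 0.75). At 4 h it was lower in labelled-KO libraries (0.871 ± 0.34 CPM, against 3.11 ± 2.78 CPM in WT, SD, edgeR adjusted p 0.04), and 1 of the 4 WT libraries stood at 7.25 CPM. At 18 h it was higher in labelled-KO libraries (2.85 ± 0.698 CPM, against 1.1 ± 0.159 CPM in WT, SD, edgeR adjusted p 0.023). Since the label is thus not borne out by this transcript at every time, and a transcript can remain when part of a gene is deleted, the libraries are called labelled KO throughout. The 8 macrophage markers, among them Adgre1 and Csf1r, summed to 19856 to 20703 CPM in labelled-KO and 18840 to 19540 CPM in WT libraries at 0 h.

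The promoters of 5 of these genes are shown as examples of the sequence at their starts. They are the 4 members with the largest called difference between the genotypes at 0 h among those with a RefSeq promoter, and Pold1, the one with the smallest difference before rounding. Each runs from 250 bases before to 50 bases after the transcription start, 5′ to 3′ on the gene's own strand, from RefSeq on GRCm38.p6: Tk1 at chr11:117825965-117826264 (minus strand), Uhrf1 at chr17:56303087-56303386 (plus), Mcm5 at chr8:75109259-75109558 (plus), Rrm2 at chr12:24708004-24708303 (plus) and Pold1 at chr7:44548766-44549065 (minus). Capitals mark matches, on either strand, to the 8-letter E2F forms TTTCCCGC, TTTCGCGC, TTTGCCGC and TTTGGCGC and to CCAAT, the letters bound by NF-Y.
Tk1: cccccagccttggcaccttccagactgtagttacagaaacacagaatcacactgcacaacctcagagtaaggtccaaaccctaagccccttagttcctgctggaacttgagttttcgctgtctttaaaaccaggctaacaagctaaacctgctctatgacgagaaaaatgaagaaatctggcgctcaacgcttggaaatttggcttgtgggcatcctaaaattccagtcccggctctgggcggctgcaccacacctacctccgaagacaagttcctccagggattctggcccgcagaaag
Uhrf1: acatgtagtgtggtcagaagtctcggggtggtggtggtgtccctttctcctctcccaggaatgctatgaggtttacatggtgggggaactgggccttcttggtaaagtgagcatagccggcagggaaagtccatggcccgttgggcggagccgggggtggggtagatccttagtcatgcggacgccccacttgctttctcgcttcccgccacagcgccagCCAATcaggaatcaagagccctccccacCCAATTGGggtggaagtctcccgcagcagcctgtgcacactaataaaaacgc
Mcm5: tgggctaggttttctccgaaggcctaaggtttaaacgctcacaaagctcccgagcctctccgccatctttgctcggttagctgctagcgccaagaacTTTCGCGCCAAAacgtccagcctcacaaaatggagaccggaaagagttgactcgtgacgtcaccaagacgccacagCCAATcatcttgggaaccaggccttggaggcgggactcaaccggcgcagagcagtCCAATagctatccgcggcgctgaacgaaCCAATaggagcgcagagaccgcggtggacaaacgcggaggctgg
Rrm2: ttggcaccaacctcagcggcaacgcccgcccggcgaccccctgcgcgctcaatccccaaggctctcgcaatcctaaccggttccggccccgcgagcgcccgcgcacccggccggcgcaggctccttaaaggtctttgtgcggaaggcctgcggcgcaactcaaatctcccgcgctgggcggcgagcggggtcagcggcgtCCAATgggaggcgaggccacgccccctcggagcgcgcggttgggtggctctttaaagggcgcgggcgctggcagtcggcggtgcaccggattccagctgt
Pold1: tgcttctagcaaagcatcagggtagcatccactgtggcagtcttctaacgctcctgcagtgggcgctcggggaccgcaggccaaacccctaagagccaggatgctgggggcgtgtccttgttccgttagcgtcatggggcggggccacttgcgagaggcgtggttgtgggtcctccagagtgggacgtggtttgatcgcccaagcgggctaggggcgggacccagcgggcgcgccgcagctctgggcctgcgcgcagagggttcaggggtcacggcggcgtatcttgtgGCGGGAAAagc
The Mcm5 window held a pair of overlapping E2F matches, at -153 and -149 from the start, and CCAAT letters at -77, -22 and 6. Uhrf1 held CCAAT letters at -30, -2 and 1, of which the last pair overlap, and Rrm2 held 1 such match at -50. Pold1 held 1 E2F match at 39. The Tk1 window held neither set of letters.

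Of the 48 members, 41 matched a RefSeq promoter (Gins1, Gins2, Rfc2, Prim2, Pole, Mcm4 and Tipin did not). The E2F letters stood in 13 of the 41 windows (31.7%), against 409 of 9943 windows of the other tested genes (4.11%), and 5 members held at least 2 matches. CCAAT stood in 24 of 41 member windows (58.5%) and in 3896 of 9943 others (39.2%). TTTGAA, the letters of the cell cycle homology region, stood in 5 of 41 (12.2%) and in 1210 of 9943 (12.2%). Overlapping matches were counted separately. Where a gene had several promoters, that nearest the counted transcript's start was taken for members and the first listed for other genes. The promoter starts used for Timeless, Mcm7, Mcm10 and E2f1 lay 5977, 539, 447 and 294 bases from the start of the counted transcript. The E2F letters stood in 5 of the 21 members called lower at 0 h that had a window and in 8 of the 20 that were not called. For CCAAT the counts were 15 of 21 and 9 of 20, and for TTTGAA 4 of 21 and 1 of 20. A match is a description of the letters only.

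**Figure D1:**
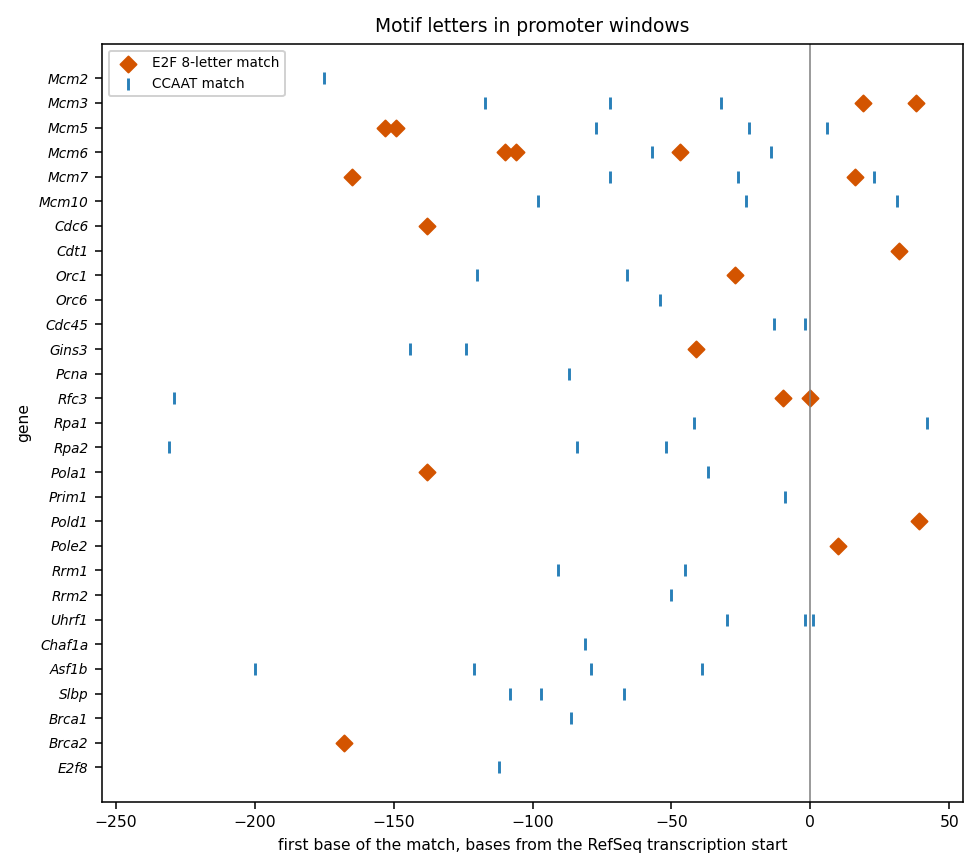
Position of motif letters in the promoter windows of members that held a match to the E2F 8-letter forms (diamonds) or to CCAAT (bars), on either strand; the x axis is the first base of the match in bases from the RefSeq transcription start, and each line down the page is a gene. The 5 members with at least 2 E2F matches are Mcm3, Mcm5, Mcm6, Mcm7 and Rfc3.

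The first comparison asks how labelled-KO macrophages without LPS differ from WT. At 0 h, 24 of the 48 genes were lower in labelled-KO libraries and none was higher, as called by edgeR (quasi-likelihood test, adjusted p under 0.05 after Benjamini-Hochberg correction over all tested genes). Over all tested genes 2.87% were called lower and 1.11% higher by that edgeR test. Another 12 members had an unadjusted p under 0.05, all with negative values, and DESeq2 called 26 lower and 0 higher. The shares of all genes are not set beside these further counts. The median log2 fold change of labelled KO over WT was -0.59 over the 48 genes and 0.01 over all genes, and 47 of the 48 values were negative. In 35 of the 48 genes every labelled-KO library lay below every WT library, a pattern that 8.72% of all genes showed, and in none did every labelled-KO library lie above (8.99% of all genes). The mean log2 CPM over the 48 genes was 2.51 to 2.66 in the labelled-KO libraries and 3.13 to 3.31 in the WT libraries, with no overlap. Of the 48, 22 overlap another annotated gene, Tk1, Pole, Pole2, Lig1, E2f1 and E2f8 among them, and Pcna and Tyms have named pseudogenes, so the share of reads that belongs to them is uncertain. The genes differed widely in level: per kilobase of transcript, WT libraries at 0 h averaged 89.3 CPM for Pcna, 16.0 for Dnmt1 and 13.9 for Mcm6, but 0.335 for Orc1 and 0.615 for Brca2.

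**Figure D2:**
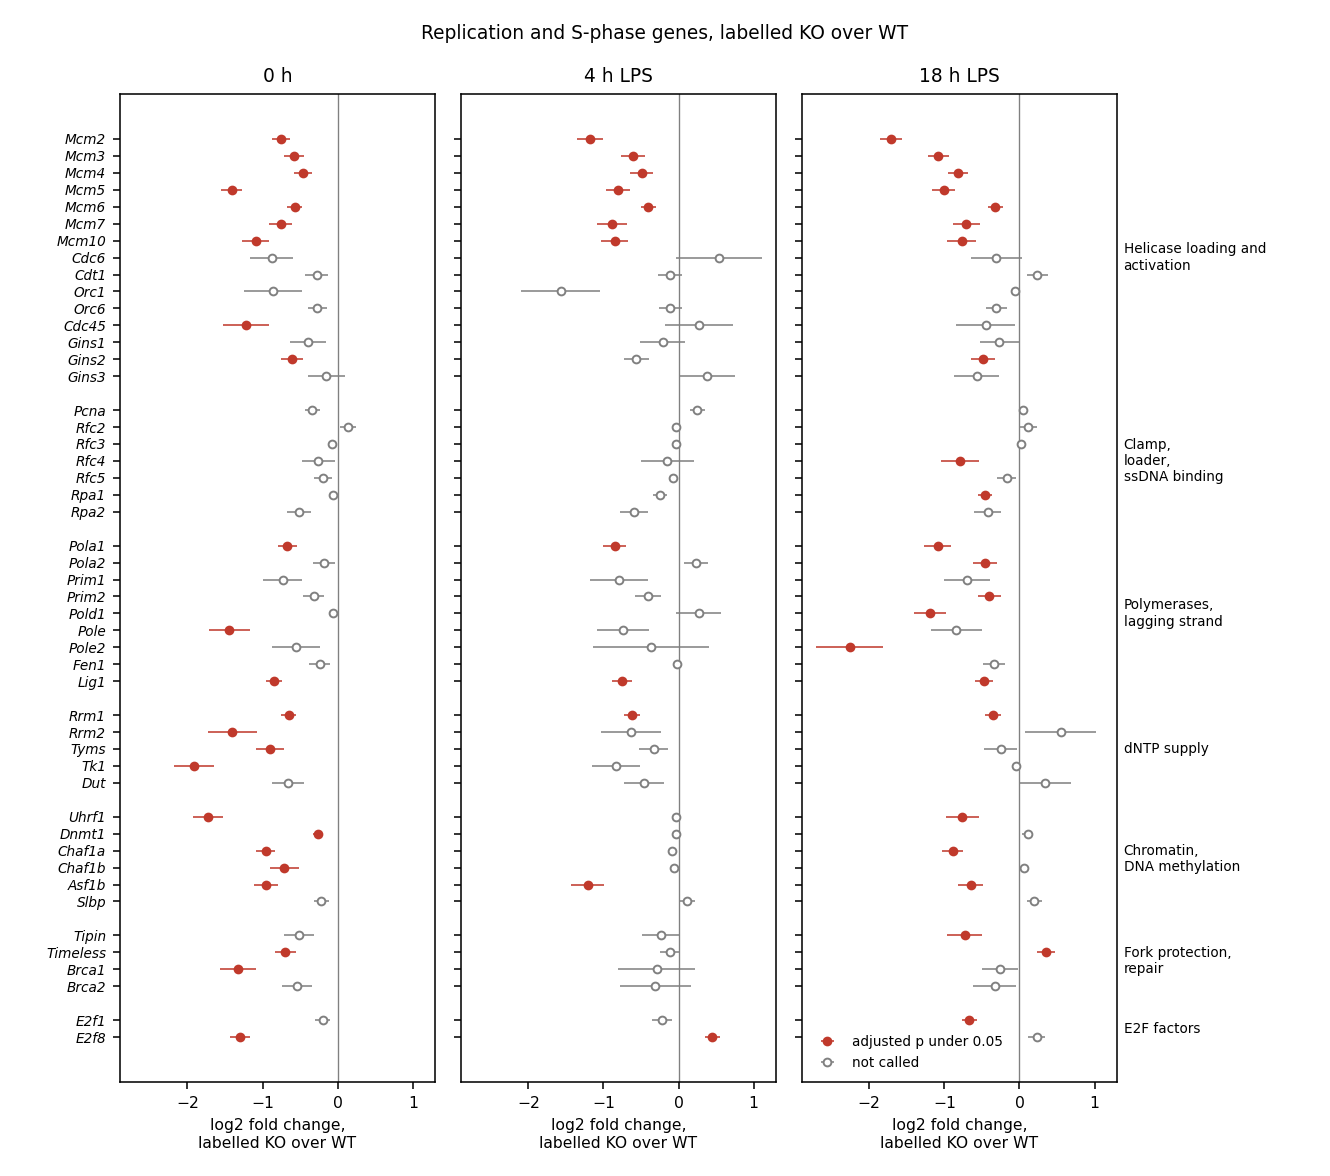
Log2 fold change of labelled KO over WT for each of the 48 genes, by role, at 0, 4 and 18 h of LPS; points are edgeR estimates, bars the standard error (left out where the estimate is within 0.1 of 0), and filled points have an adjusted p under 0.05. At 0 h all filled points lie left of 0; at 4 h E2f8 and at 18 h Timeless are the filled points to the right.

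Among the genes that load and activate the helicase, 9 of 15 fell in labelled-KO macrophages at 0 h and the median log2 fold change was -0.61. All of Mcm2 to Mcm7, the helicase ring itself, were among them. Mcm5 stood at 6.94, 8.62 and 7.11 CPM in labelled-KO libraries, against 16.2, 22.3, 19.3 and 22.5 CPM in WT libraries. The 3 labelled-KO libraries thus held less than any WT library, and Mcm5 had the largest difference of the ring (log2 fold change -1.41 ± 0.14, SE, edgeR adjusted p 1.1e-06). Mcm2 was measured at 9.9, 11 and 9.26 CPM in labelled-KO libraries, against 15.1, 18.8, 15.8 and 18.1 CPM in WT libraries (-0.76 ± 0.12, SE, edgeR adjusted p 0.00024). The others of the ring differed by -0.46 (Mcm4) to -0.76 (Mcm7). Mcm10, which helps to activate the loaded helicase, was at 3.02, 2.32 and 1.89 CPM in labelled-KO and 5.3, 4.81, 4.99 and 5.2 CPM in WT libraries (-1.09 ± 0.18, SE, edgeR adjusted p 0.00065). Cdc45, a partner of the active helicase, fell by 1.22 on the log2 scale, on 65 counts in all labelled-KO and 250 in all WT libraries. Gins2, a GINS subunit, fell by 0.61. The loaders Cdc6 (-0.88, edgeR adjusted p 0.11) and Cdt1 (-0.28, 0.39), the origin-binding Orc1 (-0.86, 0.28) and Orc6 (-0.27, 0.31), and Gins1 (-0.39, 0.47) and Gins3 (-0.15, 0.84) did not pass the test. Orc1 rested on only 36 counts in labelled-KO and 107 in WT libraries. Calls that hung on single libraries were those of Mcm3 (edgeR adjusted p 0.058 without labelled-KO number 4), Mcm4 (0.062 to 0.11 without labelled-KO number 2, 3 or 4 or WT number 2 or 4), Cdc45 (0.057 to 0.11 without labelled-KO number 2, 3 or 4 or WT number 3) and Gins2 (0.095 and 0.11 without labelled-KO number 3 or 4).

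None of the 7 genes of the sliding clamp, its loader and the single-strand binding protein passed the test at 0 h, and their median log2 fold change was -0.19. At an unadjusted p under 0.05 there were 2, Pcna and Rpa2. Pcna, the clamp, had 101, 107 and 112 CPM in the labelled-KO libraries, against 117, 136, 139 and 149 CPM in WT libraries. Every labelled-KO library was below every WT library, with a log2 fold change of -0.34 ± 0.1 (SE) and an edgeR adjusted p of 0.059. DESeq2 and limma-voom called it (adjusted p 0.019 and 0.042), the only gene of the 7 that either called. Rpa2, a subunit of the single-strand binding protein, was at -0.51 (edgeR adjusted p 0.078), while its partner Rpa1 was at -0.06 (0.77). The loader genes Rfc2 to Rfc5 lay between -0.26 and 0.14.

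Of the 9 polymerase, primase and lagging-strand genes, 3 fell and the median was -0.55. Pole, the catalytic subunit of the leading-strand polymerase, was at 2.06, 2.17 and 2.3 CPM in labelled-KO and 4.13, 6.73, 6.61 and 6.28 CPM in WT libraries (log2 fold change -1.44 ± 0.27, SE, edgeR adjusted p 0.002). Lig1, the ligase that joins Okazaki fragments, was at 10.5, 11 and 9.59 CPM in labelled-KO and 17.6, 18.8, 20.1 and 18.3 CPM in WT libraries (-0.85 ± 0.11, SE, edgeR adjusted p 4.2e-05). In both genes the groups did not overlap. Pola1, the catalytic subunit of polymerase alpha, fell by 0.67 (edgeR adjusted p 0.0027). Pold1, the catalytic subunit of the lagging-strand polymerase, was at 6.41, 7.29 and 5.26 CPM in labelled-KO and 4.87, 7.2, 6.61 and 7.73 CPM in WT libraries, so the groups overlapped (-0.06, edgeR adjusted p 0.91). Pola2, Prim1, Prim2, Pole2 and Fen1 had values of -0.73 to -0.18 and did not pass.

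The supply of deoxynucleotides held the largest single difference, and 4 of its 5 genes fell, with a median of -0.9. Tk1, the thymidine kinase of cycling cells, was at 1.69, 0.985 and 1.22 CPM in labelled-KO and 3.89, 4.74, 5.52 and 5.39 CPM in WT libraries. All 3 labelled-KO libraries thus lay below all 4 WT libraries (log2 fold change -1.91 ± 0.27, SE, edgeR adjusted p 0.0001), on 85 and 518 counts in all. Rrm2, the S-phase subunit of ribonucleotide reductase, was at 3.71, 4.09 and 2.96 CPM in labelled-KO and 7.67, 11.8, 8.58 and 9.8 CPM in WT libraries (-1.4 ± 0.33, SE, edgeR adjusted p 0.015). Its partner subunit Rrm1 fell by 0.65 (edgeR adjusted p 0.00028) and Tyms, thymidylate synthase, fell by 0.9 (0.0055), while Dut, the dUTPase, was at -0.66 (0.083). Leaving out 1 labelled-KO library ended the calls of Rrm2 (edgeR adjusted p 0.062 without number 2 and 0.097 without number 4) and Tyms (0.07 without number 4).

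Of 6 chromatin and DNA methylation genes, 5 fell at 0 h and the median was -0.83. Uhrf1, which brings the maintenance methyltransferase to newly copied DNA, was at 4.77, 3.35 and 3.11 CPM in labelled-KO and 10.3, 14.1, 12.7 and 12.0 CPM in WT libraries, far apart (log2 fold change -1.72 ± 0.2, SE, edgeR adjusted p 1.2e-05). Dnmt1, that methyltransferase, was at 72.3, 70.9 and 72.8 CPM in labelled-KO and 85.5, 88.6, 85.0 and 85.3 CPM in WT libraries. The groups did not overlap, but the difference was small (-0.26 ± 0.07, SE, edgeR adjusted p 0.043), and the call was lost without any 1 of the 7 libraries of these groups (0.07 to 0.16). Chaf1a and Chaf1b, subunits of the histone-depositing CAF-1 complex, fell (log2 fold changes -0.96 and -0.71), as did Asf1b, a histone chaperone (-0.95). The call of Chaf1b was lost without labelled-KO number 3 or 4 or WT number 2, 3 or 4 (edgeR adjusted p 0.054 to 0.22). Slbp, which binds histone messenger RNA, was at -0.22 (edgeR adjusted p 0.29).

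In the fork protection and repair group, Timeless, a fork protection factor, fell by 0.7 at 0 h (edgeR adjusted p 0.0048, 0.056 without labelled-KO number 3). Brca1, which acts in homologous recombination, was at 2.7, 2.61 and 2.59 CPM in labelled-KO and 5.19, 8.5, 6.92 and 5.91 CPM in WT libraries (log2 fold change -1.33 ± 0.24, SE, edgeR adjusted p 0.0013). Its labelled-KO libraries lay close together and below every WT library. Tipin (-0.51, edgeR adjusted p 0.2) and Brca2 (-0.54, 0.15) did not pass. E2f8, an atypical E2F that represses E2F target genes, was at 2.7, 2.71 and 2.22 CPM in labelled-KO and 7.21, 6.26, 5.6 and 5.72 CPM in WT libraries (-1.3 ± 0.13, SE, edgeR adjusted p 1.5e-06). E2f1, an activator of the same targets, was at -0.2 (0.31).

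**Figure D3:**
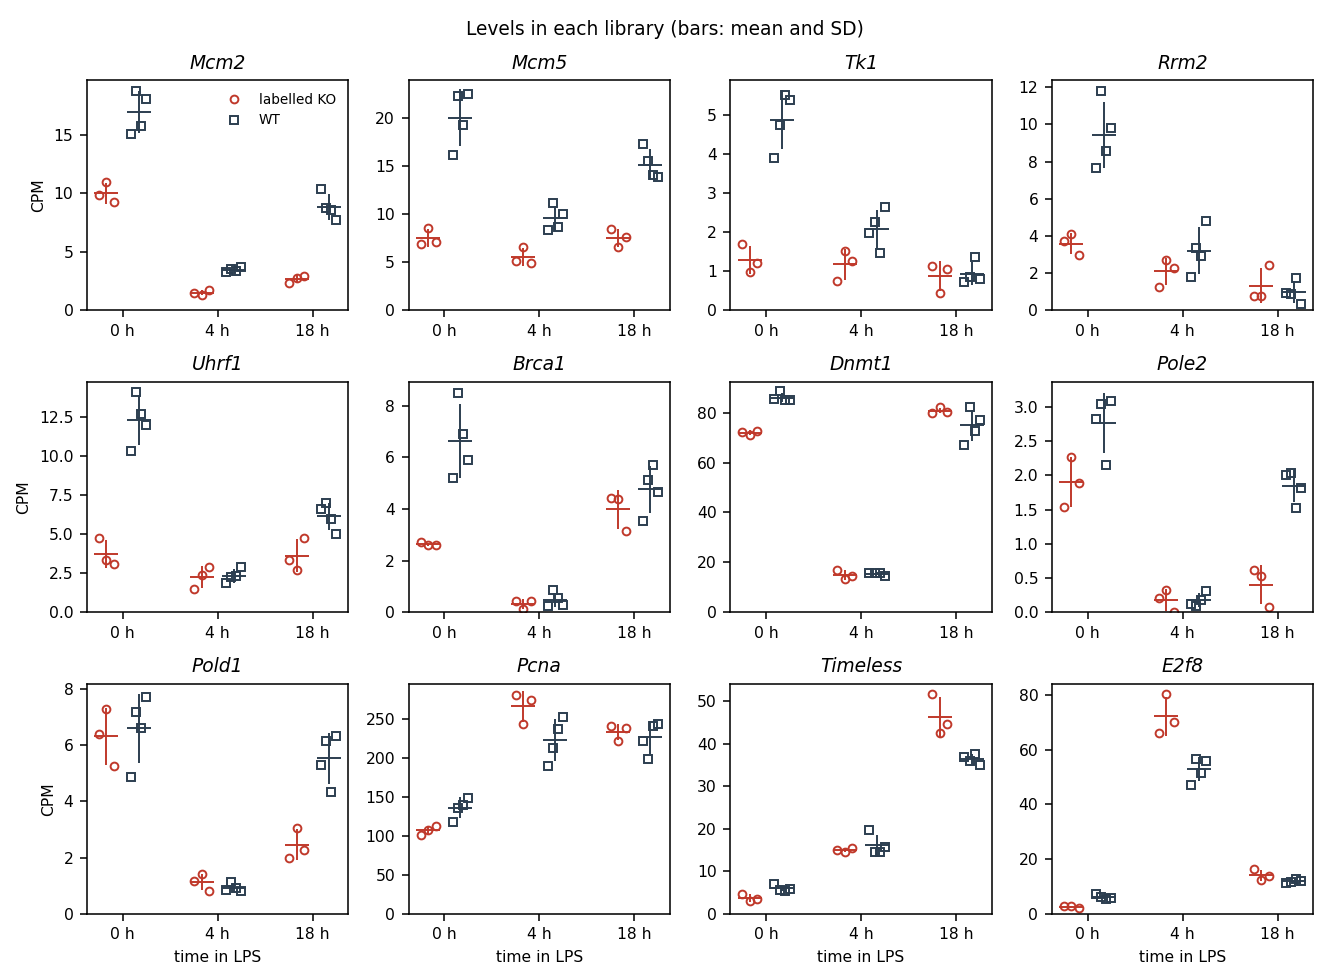
CPM of 12 of the genes in every library, by time in LPS; circles are labelled-KO libraries (n = 3 per time), squares WT libraries (n = 4 per time), and lines the mean and SD. At 0 h Tk1 stands at 0.985 to 1.69 CPM in labelled-KO and 3.89 to 5.52 CPM in WT libraries, while at 4 h E2f8 stands at 66.2 to 80.3 CPM in labelled-KO and 47.1 to 56.6 CPM in WT libraries.

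After 4 h of LPS, 11 of the 48 genes were lower in labelled-KO than in WT macrophages and 1 was higher, against 2.7% of all tested genes called lower and 2.87% higher. The median log2 fold change was -0.27 over the 48 genes and -0.01 over all genes. In 15 genes every labelled-KO library was below every WT library (9.2% of all genes) and in 1, E2f8, every one was above (8.47%). The lower genes were the whole Mcm2 to Mcm7 ring, Mcm10, Pola1, Lig1, Rrm1 and Asf1b. Mcm2 was at 1.49, 1.3 and 1.72 CPM in labelled-KO and 3.26, 3.56, 3.38 and 3.72 CPM in WT libraries, so the groups stood apart (-1.18 ± 0.17, SE, edgeR adjusted p 0.00023). Asf1b was at 1.06, 1.09 and 1.08 CPM in labelled-KO and 2.58, 2.16, 2.83 and 2.46 CPM in WT libraries (-1.21 ± 0.22, SE, edgeR adjusted p 0.0017). E2f8 was at 66.2, 80.3 and 70.3 CPM in labelled-KO and 47.1, 56.6, 51.6 and 55.8 CPM in WT libraries (0.45 ± 0.1, SE, edgeR adjusted p 0.009). Its direction at 4 h was thus the opposite of that at 0 h. Uhrf1, Dnmt1, Chaf1a and Chaf1b, which were lower at 0 h, had log2 fold changes of -0.09 to -0.03 at 4 h, none of them called. Calls lost without 1 library were those of E2f8 (edgeR adjusted p 0.058 without labelled-KO number 3), Mcm5 (0.057 without number 4), Mcm7 (0.055 without number 3 or 4), Mcm3 (0.058 to 0.12 without labelled-KO number 2 or 4 or WT number 2 or 4), Mcm4 (0.081 to 0.19 without labelled-KO number 2 or 3 or WT number 1, 2 or 4) and Mcm6 (0.05 to 0.13 without labelled-KO number 3 or 4 or WT number 2, 3 or 4). When edgeR was fitted on these 2 groups alone, 40 of the 48 genes passed the filter and 7 were called, 6 of them lower.

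After 18 h of LPS, 22 of the 48 genes were lower in labelled-KO macrophages and 1 was higher. At this time 15.6% of all tested genes were called lower and 16.6% higher, so the count of higher members lay below the background and that of lower members above it. The median log2 fold change was -0.41 over the 48 genes and -0.01 over all genes. In 25 genes every labelled-KO library was below every WT library (17.6% of all genes), and in 2, Slbp and Timeless, every one was above (18.2%). The lower genes included 8 of the 15 helicase genes and 6 of the 9 polymerase, primase and lagging-strand genes, but 1 of the 5 deoxynucleotide genes. The median log2 fold change of the last group was -0.05. Most of its genes had low counts, and whether depth limited their calls was not tested. Dut, Tk1, Rrm2 and Tyms rested on 22, 33, 52 and 67 counts in all labelled-KO libraries at 18 h, and on 34, 65, 66 and 152 in all WT libraries. Mcm2 was at 2.35, 2.8 and 2.92 CPM in labelled-KO and 10.4, 8.8, 8.61 and 7.7 CPM in WT libraries (-1.71 ± 0.14, SE, edgeR adjusted p 4.5e-08). Pole2, the accessory subunit of the leading-strand polymerase, was at 0.609, 0.525 and 0.0711 CPM in labelled-KO and 2.01, 2.03, 1.53 and 1.81 CPM in WT libraries (-2.26 ± 0.45, SE, edgeR adjusted p 0.0008). The groups stood apart in both genes, though Pole2 rested on 14 counts in all 3 labelled-KO libraries and 136 in the 4 WT libraries.

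The lagging-strand polymerase gene Pold1, which had not differed detectably at 0 h, was at 2.0, 3.07 and 2.28 CPM in labelled-KO and 5.31, 6.14, 4.34 and 6.34 CPM in WT libraries at 18 h (-1.19 ± 0.21, SE, edgeR adjusted p 0.00027). E2f1 was at 9.66, 10.6 and 10.0 CPM in labelled-KO and 15.3, 16.9, 15.0 and 16.7 CPM in WT libraries (-0.67 ± 0.1, SE, edgeR adjusted p 7.9e-05). In both genes all labelled-KO libraries were lower. Rpa1, uncalled at 0 h, fell by 0.46 (edgeR adjusted p 0.00046). Timeless, the 1 higher gene, was at 51.7, 42.5 and 44.7 CPM in labelled-KO and 37.0, 36.0, 37.5 and 35.0 CPM in WT libraries (0.35 ± 0.12, SE, edgeR adjusted p 0.025). That call was lost without labelled-KO number 2 or 4 or WT number 1, 2 or 4 (edgeR adjusted p 0.052 to 0.14). At the same time Tk1 (-0.05, edgeR adjusted p 0.94), Rrm2 (0.55, 0.4), Tyms (-0.25, 0.44), Brca1 (-0.26, 0.44) and Dnmt1 (0.11, 0.25) were not called. Of the other calls at 18 h, those of Mcm6, Gins2, Rfc4, Pola2, Prim2 and Tipin were lost without labelled-KO number 4 (edgeR adjusted p 0.064 to 0.23). Other single libraries also ended calls among these 6 genes, with edgeR adjusted p of 0.053 to 0.17: labelled-KO number 2 (Gins2, Rfc4, Prim2, Tipin) or 3 (Pola2), and WT number 1 (Mcm6, Pola2, Prim2, Tipin), 2 (Pola2), 3 (Prim2) or 4 (Rfc4, Prim2). Rrm1 lost its call without labelled-KO number 2 (0.07) and Uhrf1 without number 3 (0.064).

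Across the 3 times, 11 members were called lower in labelled-KO macrophages every time: Mcm2 to Mcm7, Mcm10, Pola1, Lig1, Rrm1 and Asf1b. The times share no library, but they reuse the replicate numbers and come from 1 edgeR fit. Whether a number stands for 1 mouse is not given, so the times may not be independent. Of the 11, only Mcm2, Mcm10, Pola1, Lig1 and Asf1b kept the 4 h call under every alternative. Over all tested genes 61 were called lower at all 3 times (0.487%). A further 10 members were called lower at 0 h and not called lower at 18 h, among them Tk1, Rrm2, Tyms, Brca1, Cdc45 and E2f8, a pattern shown by 2.01% of all tested genes. Another 8, Rfc4, Rpa1, Pola2, Prim2, Pold1, Pole2, Tipin and E2f1, were called lower at 18 h and not at 0 h, a share of the 48 close to the 14.8% of all tested genes with that pattern. These groups come from calls, and the change of the difference with time is a separate test, the interaction of genotype and LPS. Without the 3 labelled-KO libraries numbered 4, the counts of called members were 16 at 0 h, 9 at 4 h and 16 at 18 h.

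The next comparisons ask what LPS did to these genes within each genotype. At 4 h, 31 of the 48 genes fell and 7 rose in labelled-KO macrophages, and 36 fell and 6 rose in WT macrophages. Most genes responded to LPS, so these counts need their background: 41.5% of all tested genes fell and 33.5% rose in labelled-KO, and 43% fell and 35.1% rose in WT. The median log2 fold change of 4 h over 0 h was -0.95 for the 48 genes and -0.14 for all genes in labelled-KO, and -1.13 and -0.17 in WT. The balance over all genes depends on scaling: with upper-quartile factors 3294 rose and 6582 fell in labelled-KO and 3359 rose and 6935 fell in WT, in place of 4196 and 5198 and of 4403 and 5383. The members' split moved little with those factors (6 rose and 37 fell in labelled-KO, 5 rose and 41 fell in WT), although the median of all genes shifted to -0.47 and -0.52.

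Brca2, Pole2 and Brca1 had the largest falls of the 48 genes at 4 h in both genotypes, but on few counts. At 4 h Brca2 rested on 9 counts in all labelled-KO and 20 in all WT libraries, Pole2 on 5 and 12, and Brca1 on 12 and 25. The sizes and order of these falls are thus uncertain. Brca1 was at 0.425, 0.109 and 0.446 CPM at 4 h and 2.7, 2.61 and 2.59 CPM at 0 h in labelled-KO libraries (log2 fold change -2.9 ± 0.4, SE, edgeR adjusted p 1.1e-06), and it was at 0.246, 0.844, 0.548 and 0.269 CPM at 4 h in WT libraries (-3.93). Brca2, which acts in homologous recombination, had log2 fold changes of -4.04 in labelled-KO and -4.27 in WT. Those of Pole2 were -3.61 in labelled-KO and -3.78 in WT, and those of Pold1 -2.51 in labelled-KO and -2.85 in WT. Dnmt1 was at 17.1, 13.4 and 14.5 CPM at 4 h in labelled-KO libraries and at 15.6, 15.6, 15.9 and 14.7 CPM in WT libraries, with log2 fold changes over 0 h of -2.27 in labelled-KO and -2.48 in WT. At 4 h the Dnmt1 values of the 2 genotypes overlapped.

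A few members moved the other way at 4 h. E2f8 stood at 66.2, 80.3 and 70.3 CPM at 4 h and 2.7, 2.71 and 2.22 CPM at 0 h in labelled-KO libraries, a rise of 4.83 ± 0.13 on the log2 scale (SE, edgeR adjusted p 6.2e-18). In WT libraries E2f8 rose by 3.08 ± 0.1 (SE, edgeR adjusted p 5.5e-17). Rfc3, a clamp loader subunit, was at 32.3, 31.9 and 35.3 CPM at 4 h and 6.78, 6.31 and 5.93 CPM at 0 h in labelled-KO libraries, and at 41.7, 28.1, 33.7 and 33.1 CPM at 4 h and 7.16, 4.99, 7.05 and 7.5 CPM at 0 h in WT libraries. Its rises were 2.39 in labelled-KO and 2.36 in WT, and no library at 4 h overlapped those at 0 h. Timeless rose by 2.02 in labelled-KO and 1.43 in WT, Mcm10 by 1.34 and 1.1, Pcna by 1.32 and 0.72, and Tyms by 1.19 and 0.62. With upper-quartile factors Tyms lost its call in WT. Slbp rose by 0.43 in labelled-KO (edgeR adjusted p 0.0016), a call lost under the same factors. In WT, Slbp was at 0.1 (0.32), and with upper-quartile factors at -0.24 (0.022).

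**Figure D4:**
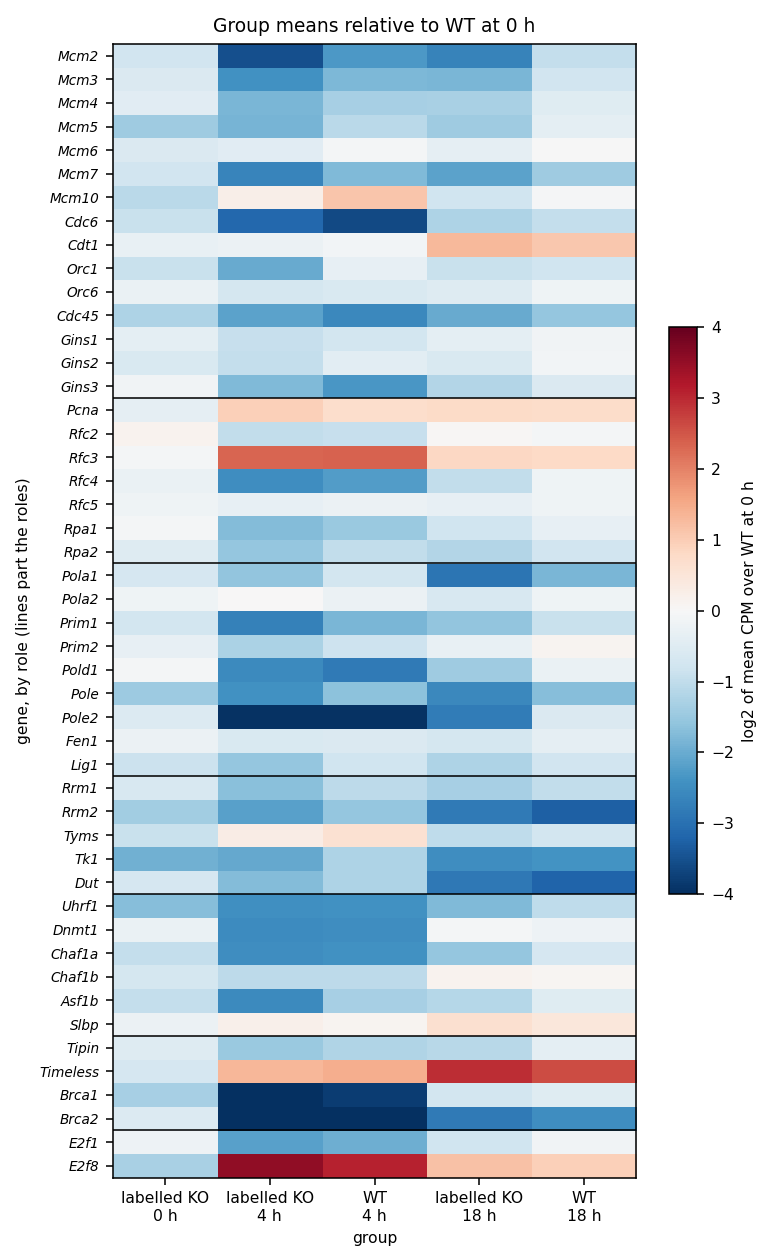
Log2 of each group's mean CPM over the WT mean at 0 h for the 48 genes, by role; colours run from -4 (blue) to 4 (red) and values beyond are drawn at the ends. E2f8, Rfc3, Timeless, Pcna and Mcm10 are above the WT level at 0 h in both genotypes at 4 h, while Brca1, Brca2 and Pole2 are at or near the blue end there.

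At 18 h against 0 h, 23 fell and 7 rose in labelled-KO (38.5% and 34.5% of all tested genes), and 26 fell and 6 rose in WT (36.3% and 34.8%). At 18 h against 4 h, 24 rose and 7 fell in labelled-KO (33.3% and 32.1% of all genes), and 28 rose and 8 fell in WT (37.2% and 34.5%). The median of the 48 genes from 4 to 18 h was 0.5 in labelled-KO and 0.74 in WT, against 0.02 and 0.06 over all genes. With upper-quartile factors the split over all WT genes of 18 h against 0 h was 3516 higher and 5591 lower, in place of 4359 and 4554. With those factors 36 members fell and 6 rose in WT, in place of 26 and 6, and the median of all genes was -0.23 in place of -0.05.

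All 6 chromatin and DNA methylation genes rose between 4 and 18 h in both genotypes, and of the 4 fork protection and repair genes 3 rose in labelled-KO and 4 in WT. The call of the Uhrf1 rise in labelled-KO (0.65 ± 0.27, SE, edgeR adjusted p 0.037) was lost without labelled-KO number 2 at 4 h (0.45, adjusted p 0.17), number 3 at 4 h (0.67, 0.061) or number 4 at 18 h (0.38, 0.26), and with limma-voom (0.64, 0.1). Dnmt1 was at 80.1, 82.2 and 80.5 CPM at 18 h in labelled-KO and at 67.2, 82.2, 72.8 and 77.3 CPM in WT libraries, rises of 2.43 and 2.28 over 4 h. Against its level at 0 h Dnmt1 was at 0.17 in labelled-KO (edgeR adjusted p 0.053) and -0.2 in WT (0.0098, and uncalled without WT number 1 at 18 h). Brca1 was at 4.44, 4.38 and 3.13 CPM at 18 h in labelled-KO and at 3.54, 5.13, 5.71 and 4.64 CPM in WT libraries, rises of 3.49 and 3.45 over 4 h. Timeless rose further, by 1.63 in labelled-KO and 1.16 in WT from 4 to 18 h, and ended 3.65 and 2.6 above its 0 h level. Cdt1 rose from 4 to 18 h by 1.54 in labelled-KO and 1.2 in WT.

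Of the 5 genes of deoxynucleotide supply, 2 fell and 1 rose in labelled-KO between 4 and 18 h, and 4 fell in WT. All 5 fell in WT between 0 and 18 h, with a median log2 fold change of -2.4. Dut was at 0.435, 0.788 and 0.569 CPM at 18 h in labelled-KO libraries, against 2.38, 3.55 and 2.22 CPM at 0 h (log2 fold change -2.17 ± 0.29, SE, edgeR adjusted p 7.8e-07), and in WT it fell by 3.17 ± 0.24 (SE, edgeR adjusted p 9.7e-11). Rrm2 fell over the same time, with log2 fold changes of -1.37 in labelled-KO and -3.33 in WT. Tk1 was at 1.13, 0.438 and 1.07 CPM at 18 h in labelled-KO libraries and overlapped its 0 h level (-0.54, edgeR adjusted p 0.17). In WT libraries Tk1 was at 0.732, 0.861, 1.37 and 0.793 CPM at 18 h, below every WT library at 0 h (-2.4 ± 0.26, SE, edgeR adjusted p 4e-08). Pola1 also fell between 4 and 18 h (-1.35 in labelled-KO and -1.11 in WT).

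Whether LPS acted differently on the genotypes was tested by the interaction, the change with LPS in labelled-KO minus that in WT. At 4 h, 3 of the 48 genes were called, all positive, against 0.599% of all genes called positive and 0.2% negative; the median was 0.19 for the 48 genes and -0.02 for all. They were E2f8 (1.76 ± 0.17, SE, edgeR adjusted p 2.5e-06), Uhrf1 (1.69 ± 0.33, SE, edgeR adjusted p 0.011) and Pcna (0.6 ± 0.14, SE, edgeR adjusted p 0.047). E2f8 rose more in labelled-KO, and Uhrf1 fell less there: at 4 h it was at 1.49, 2.39 and 2.87 CPM in labelled-KO and 1.84, 2.25, 2.29 and 2.91 CPM in WT libraries, from 0 h levels that stood far apart. Pcna was at 280, 243 and 274 CPM at 4 h in labelled-KO and 190, 213, 237 and 252 CPM in WT libraries, where the groups overlapped. The Uhrf1 call was lost without labelled-KO number 4 at 4 h (edgeR adjusted p 0.13), and the Pcna call without any 1 of 11 libraries (0.054 to 0.17). The 11 were every labelled-KO library at 0 h, labelled-KO numbers 2 and 4 at 4 h, WT numbers 2 to 4 at 0 h and WT numbers 1 to 3 at 4 h. Without labelled-KO number 4 at 4 h, and likewise without that number at all 3 times, 1 member was called.

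At 18 h, 8 genes had a positive and 5 a negative interaction, against 8.57% and 9% of all tested genes, and the median was 0.17 for the 48 genes. The positive ones were Rrm2 (1.96), Tk1 (1.86), E2f8 (1.53), Brca1 (1.07), Timeless (1.05), Uhrf1 (0.96), Slbp (0.42) and Dnmt1 (0.37). For Tk1 the labelled-KO libraries began at 0.985 to 1.69 CPM and ended at 0.438 to 1.13 CPM, and the WT libraries began at 3.89 to 5.52 CPM and ended at 0.732 to 1.37 CPM. At 18 h the groups overlapped (interaction 1.86 ± 0.44, SE, edgeR adjusted p 0.007). The negative ones were Pole2 (-1.71), Pold1 (-1.13), Mcm2 (-0.96), E2f1 (-0.46) and Rpa1 (-0.4). For Mcm2 the log2 fold change of 18 h over 0 h was -1.89 in labelled-KO and -0.93 in WT (interaction -0.96 ± 0.18, SE, edgeR adjusted p 0.0013), and for Pold1 it was -1.37 in labelled-KO, against -0.24 in WT, uncalled there but called with upper-quartile factors (-0.42, edgeR adjusted p 0.034; interaction -1.13 ± 0.28, SE, edgeR adjusted p 0.008).

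The share of members called in each direction at 18 h can be set against the background: 8 of 48 and 5 of 48 beside 8.57% and 9% of all genes. The calls of Mcm2, Pold1, Timeless and E2f8 held under all 25 alternatives. Without labelled-KO number 4 at 18 h 7 members were called, without labelled-KO number 3 at 0 h 8, and without number 4 at all 3 times 5. The calls of Tk1 (edgeR adjusted p 0.071) and Dnmt1 (0.056) were lost only in that last fit. Rrm2 lost its call without labelled-KO number 4 at 0 or 18 h (0.051 and 0.27), and Uhrf1 (0.055 to 0.15) without labelled-KO number 3 at 0 h, number 4 at 0 or 18 h, WT number 2 at 0 h or WT number 4 at 18 h. Rpa1 (0.054 to 0.071) lost it without labelled-KO number 3 at 0 or 18 h, number 4 at 18 h or WT number 1 at 18 h. The calls of Brca1 (0.053 to 0.075), Pole2 (0.057 to 0.14), E2f1 (0.053 to 0.086) and Slbp (0.055 to 0.13) each hung on 8 or more of the 14 libraries, labelled-KO and WT alike.

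Neighbouring genes of the cell cycle were described from lists outside the 48, whose counts stand beside the shares of all tested genes called lower and higher (2.87% and 1.11% at 0 h, 2.7% and 2.87% at 4 h, 15.6% and 16.6% at 18 h). Of 33 other replication factors, 6 were lower in labelled-KO at 0 h and none higher, with a median log2 fold change of -0.2. Among them were Fancd2 (-1.71), a Fanconi anaemia repair protein, Clspn (-1.55), a checkpoint mediator, Chtf18 (-1.15), Wdhd1 (-0.56) and Topbp1 (-0.37). At 4 h 1 was lower and 1 higher, and at 18 h 8 were lower and 2 higher. Of 21 other genes of nucleotide synthesis, 3 were lower at 4 h and 12 at 18 h, where 1 was higher (Samhd1, 0.52). Among those lower at 18 h were Dctd (-2.29), Impdh2 (-1.23) and Cad (-1.16).

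Of 11 G1 cyclins, kinases and their drivers, 5 were lower at 0 h: Ccnd1 (log2 fold change -1.24, edgeR adjusted p 4.2e-09), Ccne1 (-1.13), Ccna2 (-1.13), Myc (-1.06) and Ccne2 (-0.97). At 18 h Ccne1 (1.09) and Ccnd2 (0.8) were higher in labelled-KO and Cdc25a (-0.46) and Cdk4 (-0.25) lower. A list of 17 genes outside the 48 held E2F factors, pocket proteins and further cell cycle factors. Of these, E2f7 (-1.53), Mybl2 (-1.2), Foxm1 (-0.75) and Rbl1 (-0.39) were lower at 0 h. Mybl2 and Foxm1 are neither E2F factors nor pocket proteins. At 18 h Mybl2 (1.1), Rbl1 (0.75) and Foxm1 (0.73) were higher and E2f6 (-0.68) lower. Ccnd1 (-0.73) was the 1 cyclin or kinase gene lower at 4 h. None of the 17 genes of the E2F and pocket protein list was called then (2 at an unadjusted p under 0.05). None of the 15 tested CDK inhibitor and p53 target genes was called at 0 h, when 4 had an unadjusted p under 0.05. At 4 h Gadd45b (0.35) was higher and Sesn1 (-1.11) lower, and at 18 h 6 were higher and 2 lower. Cdkn1a, the inhibitor p21, was among the higher ones at 18 h (0.57, edgeR adjusted p 0.0012).

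The 30 genes of G2 and mitosis, the phases after S, gave a view of the rest of the cycle. At 0 h 25 of them were lower in labelled-KO and none higher, with a median log2 fold change of -1.35, among them Cep55 (-2.06), Nusap1 (-2.05) and Cenpf (-2.02). At 4 h 4 were lower and 1 higher. At 18 h 3 were lower and 6 higher with a median of 0.14, counts near the shares of all tested genes (15.6% lower and 16.6% higher), while the replication genes had 22 lower and 1 higher with a median of -0.41. In WT macrophages 29 of the 30 fell between 0 and 18 h, with a median of -2.95, while 26 of the 48 replication genes fell with a median of -0.43, beside 36.3% of all tested genes. The mean log2 CPM of the G2 and mitosis genes at 18 h was 0.36 to 0.85 in the labelled-KO libraries and 0.37 to 0.65 in the WT libraries, which overlapped. Their summed level was 170 to 187 CPM in the labelled-KO libraries and 118 to 154 CPM in the WT libraries, which did not overlap. The mean log2 CPM over the 48 replication genes was 2.22 to 2.3 in the labelled-KO libraries and 2.66 to 2.75 in the WT libraries, which did not overlap. No test compared the lists with each other.

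**Figure D5:**
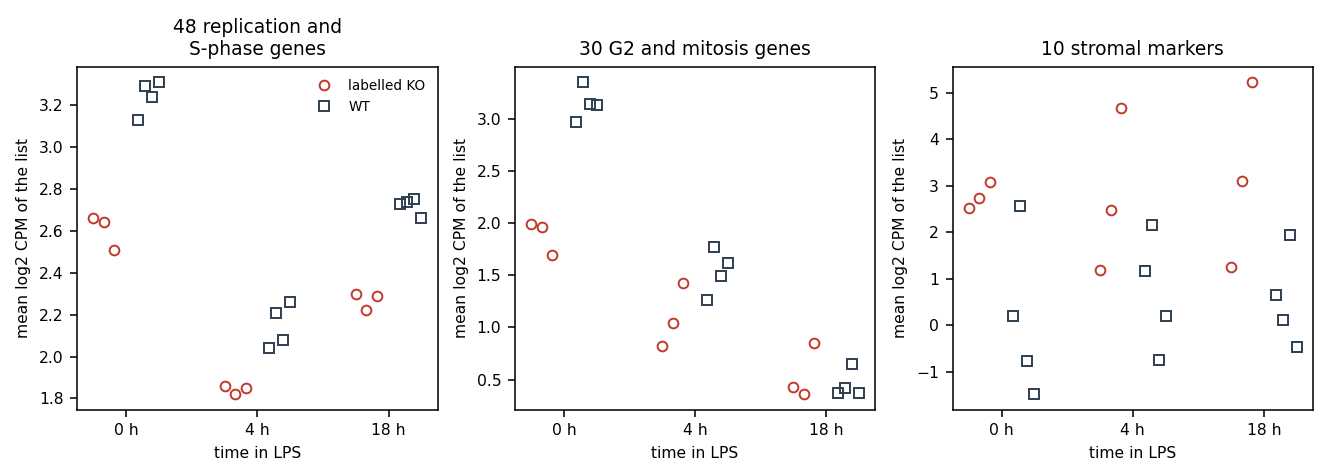
Mean log2 CPM of each list in every library, by time in LPS, for the 48 replication and S-phase genes, 30 genes of G2 and mitosis and 10 stromal markers; circles are labelled-KO and squares WT libraries. At 18 h the replication genes lie at 2.22 to 2.3 in the labelled-KO libraries and 2.66 to 2.75 in the WT libraries while the mitosis genes overlap, and the stromal markers spread widely within both genotypes.

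Markers of other cells moved with genotype as well. Of 14 neutrophil and granulocyte precursor markers 8 were tested, and 7 of these were higher in labelled-KO at 0 h, none at 4 h (5 at an unadjusted p under 0.05) and 5 at 18 h. Their summed level at 0 h was 78.8 to 134 CPM in labelled-KO and 28.3 to 49.1 CPM in WT libraries, at 4 h 144 to 202 CPM in labelled-KO and 98.2 to 150 CPM in WT libraries, and at 18 h 328 to 462 CPM in labelled-KO and 190 to 277 CPM in WT libraries. At 0 h none of the 14 was at 0 in all libraries of a genotype, and at 4 h Elane was at 0 in labelled-KO and Mpo, Elane and Ly6g in WT. At 18 h the defining genes Mpo and Prtn3 were at 0 in labelled-KO, and Mpo, Elane, Prtn3 and Retnlg in WT. Of 8 monocyte markers 2 were higher at 0 h, 1 at 4 h and 3 at 18 h, when 1 was lower. They summed to 595 to 766 CPM in labelled-KO and 396 to 589 CPM in WT libraries at 0 h, to 772 to 1003 CPM in labelled-KO and 614 to 693 CPM in WT libraries at 4 h, and to 519 to 734 CPM in labelled-KO and 302 to 360 CPM in WT libraries at 18 h. These sums did not overlap between the genotypes at any of the times. Stromal markers, 10 of 12 tested, included none called at 0 or 4 h (5 and 7 at an unadjusted p under 0.05) and 9 higher at 18 h. They summed to 130 to 223 CPM in labelled-KO and 3.66 to 133 CPM in WT libraries at 0 h, with Lum at 0 in labelled-KO, to 41.1 to 532 CPM in labelled-KO and 11.8 to 74.2 CPM in WT libraries at 4 h, and to 45.7 to 886 CPM in labelled-KO and 12.8 to 62.5 CPM in WT libraries at 18 h. With the mean of the stromal markers as a covariate, 20 members were called at 0 h, 10 at 4 h and 18 at 18 h. The shares of all genes called in that fit are not set beside these counts. They describe only how the members' calls moved and do not settle the part of stromal RNA. The part of neutrophil and monocyte RNA in the differences was not tested. Of the 8 macrophage markers 1 was higher at 0 h, 1 lower at 4 h, and 2 higher and 2 lower at 18 h. Their sums at 4 h were 18795 to 20803 CPM in labelled-KO and 18927 to 23500 CPM in WT libraries, which overlapped. At 18 h the sums were 12273 to 12832 CPM in labelled-KO and 13070 to 14496 CPM in WT libraries, which did not overlap. Of 4 tested dendritic cell markers 3 were higher at 18 h, and none was called at 0 or 4 h (1 and 0 at an unadjusted p under 0.05). None of 3 tested progenitor markers was called at any time (at most 1 at an unadjusted p under 0.05), and none of 6 lymphoid markers passed the filter.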

How the data were processed

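Poly(A) RNA was sequenced in 21 libraries, made with the KAPA mRNA Hyperprep kit from RNeasy-purified RNA, per the labels' protocols. CASAVA 1.8.2, HISAT2 2.1.0 and the mm10 build were used, per the submitters' processing notes. The deposited values are estimated counts, 1 value per RefSeq transcript, given to the nearest 0.5 without scaling for depth; the sources used here name no counting tool and no strand setting. Library totals were 23478281.5 to 55852932. Depth limits the low genes, and the p-values cover only the spread between libraries. Of 42361 IDs, 42203 matched RefSeq and 65 GENCODE only. The 93 without a name took 0.232 to 2.229% of counts and were left out. The design had assumed whole counts, so the values were rounded.

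The transcript with the highest mean stood for each gene. In 23 members with several transcripts, the second held a median 0.992 of the first (lowest 0.426, Gins1). edgeR 4.0.16 (R 4.3.3) with its default low-count filter, TMM factors and 1 quasi-likelihood fit over 6 groups gave 11 comparisons, each adjusted by Benjamini-Hochberg over all tested genes. The edgeR steps were tested on simulated data. Alternatives used DESeq2 1.42.0, limma 3.58.1 (voom), other scaling factors and filters, summed transcripts, only the groups compared, a replicate block, a stromal covariate, and fits without libraries. Promoters were read with Python 3.11.15 and pandas 2.3.3, and figures drawn with matplotlib 3.10.9.

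Members and lists were chosen with earlier results of these data known. The text could name any member, Nr4a1, any marker, cyclin, E2F or CDK inhibitor gene, and of other lists up to 3 called genes of each sign with the largest change; Chtf18, Wdhd1 and Topbp1 were named besides, after their values were seen. A few genes of these lists are not reported here. Replicate numbers were to qualify as pairs where every same-numbered pair of libraries had deviations correlated over 0.1. That held between 0 and 4 h in WT (r = 0.23, 0.32, 0.24 and 0.24). The values given for all comparisons, that one included, nevertheless come from the fit without pairs. Pairs entered only as the replicate block among the alternatives. The numbers are not stated to be mice.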

Additional observations from a re-analysis of the deposited data

Results flagged for a closer look

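In 6 of 144 checks of the 4 WT libraries of a time, 1 library stood far from the other 3; chance gives about 1 in 20. At 18 h these were Orc1 at 0.804 CPM and Rfc5 at 10.1 CPM in WT number 3, and Rpa1 at 40.3 CPM in WT number 1. At 4 h they were Fen1 at 7.93 CPM in WT number 1 and Dut at 2.34 CPM in WT number 2. At 0 h Dnmt1 stood at 88.6 CPM in WT number 2. Groups of 3 labelled-KO libraries were not checked in this way.

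The response to LPS differed between the genotypes by the interaction test (edgeR, labelled KO minus WT, log2) for 3 genes at 4 h, Pcna (0.6), Uhrf1 (1.69) and E2f8 (1.76). At 18 h it differed for Rrm2 (1.96), Tk1 (1.86), E2f8 (1.53), Brca1 (1.07), Timeless (1.05), Uhrf1 (0.96), Slbp (0.42) and Dnmt1 (0.37), all positive, and for Pole2 (-1.71), Pold1 (-1.13), Mcm2 (-0.96), E2f1 (-0.46) and Rpa1 (-0.4), all negative. Over all tested genes 0.599% were called positive and 0.2% negative at 4 h, and 8.57% and 9% at 18 h. Only 1 of 3 member calls at 4 h and 4 of 13 at 18 h were kept under every alternative.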

How the results depend on the processing

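Over 11 alternatives and 21 libraries left out in turn, named results kept direction and side of the threshold 9704 times, lost the call 327 times, gained it 121 times and reversed once: Slbp at 4 h against 0 h in WT fell by 0.24 with upper-quartile factors. Of the counts of calls, 402 stayed within 1.5 times and 22 did not; the cause was not tested. DESeq2 called 26, 12 and 22 members between genotypes at 0, 4 and 18 h and limma-voom 29, 9 and 23. The shares of all genes called in those fits are not set beside these counts, which describe only how the members' calls moved. Over all genes the interaction at 4 h had 197 calls with DESeq2. With only the groups compared, 7 members and 272 genes were called at 4 h. The stromal covariate gave 395 genes at 4 h and 2415 at 18 h. Without labelled-KO number 4 at all times there were 269 genes at 4 h and 2520 at 18 h, and the interaction called 1 member and 44 genes at 4 h and 5 members and 1268 genes at 18 h.

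Leaving out 1 library gave 16 to 25 members and 314 to 498 genes between genotypes at 0 h, where each labelled-KO library moved the genes (314 without number 4, 315 without 3, 317 without 2). At 4 h it gave 8 to 11 members and 275 to 681 genes (275 without labelled-KO number 4, 382 without 2), and at 18 h 16 to 23 members and 2674 to 3842 genes (2674 without labelled-KO number 4). The interaction at 4 h had 1 to 3 members (1 without labelled-KO number 4 at 4 h) and 62 to 128 genes (62 without that library or labelled-KO number 2 at 0 h). At 18 h it had 7 to 14 members (7 without labelled-KO number 4 at 18 h, 8 without number 3 at 0 h) and 1528 to 2201 genes.

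Calls of members kept under every alternative were 15 of 24 at 0 h, 5 of 12 at 4 h and 14 of 23 at 18 h between genotypes. Within labelled KO they were 31 of 38 (4 against 0 h), 22 of 30 (18 against 0 h) and 24 of 31 (18 against 4 h), and within WT 41 of 42, 28 of 32 and 34 of 36. For the interaction they were 1 of 3 and 4 of 13.

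With the replicate number as a block, 25 members were lower in labelled KO at 0 h, 10 lower and 1 higher at 4 h, and 24 lower and 1 higher at 18 h, and no count moved by over 1.5 times. The block changed no member's call at 4 against 0 h in WT, the pairs that qualified. Between genotypes, same-numbered libraries of a time had correlations of -0.34 to 0.16, so the numbers did not pair these. Same-numbered labelled-KO libraries at 4 and 18 h had correlations of 0.4, 0.1 and 0.5, and differently numbered ones -0.48 to 0.11. The pair at 0.1 did not pass the rule of over 0.1, so these groups were compared unpaired. Whether their same-numbered libraries share a source was not tested further. Depth limits Orc1, Cdc45, Tk1, Cdc6, Tyms and Pole2 (36, 65, 85, 95, 125 and 126 counts in all labelled-KO libraries at 0 h).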
